A study of Mus musculus with 11 samples.

Results

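The 10 genes described here encode heat shock proteins of mouse embryonic stem cells. They are the cytosolic HSP90 genes Hsp90aa1 and Hsp90ab1, the HSP70 genes Hspa8, Hspa1a and Hspa1b, the HSP110 genes Hspa4 and Hsph1, the J-domain gene Dnajb1, and the mitochondrial chaperonin genes Hspd1 and Hspe1. They were chosen by name from the HSP90, HSP70 and HSP60/10 families and the known targets of the transcription factor HSF1. Each matched a single identifier among the 54838 gene identifiers counted, of which 54809 have a symbol in the annotation used.

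Heat shock proteins are chaperones: they bind proteins that are unfolded or not yet folded and use ATP to let them fold, hold them or pass them on. HSP70 proteins take up clients with the help of J-domain proteins and release them when a nucleotide exchange factor of the HSP110 family acts. HSP90 then matures a narrower set of clients such as kinases and nuclear receptors, and in the mitochondrial matrix HSP60 and its lid HSP10 fold imported proteins in a closed chamber. When unfolded protein builds up, HSF1 is freed from chaperones, binds the heat shock element in promoters and raises the inducible members of this family, while other members are made at a high level without stress.

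The libraries come from E14, an established line of mouse embryonic stem cells grown with LIF, a cytokine that keeps such cells pluripotent. Cells were transfected with siRNAs, short duplexes that guide the cleavage of matching mRNA, and harvested after 36 h. A control group of 3 libraries received a scramble siRNA, and 2 groups of 4 libraries each received a CMTR1-specific siRNA, named siRNA 1 and siRNA 2 below. CMTR1 methylates the ribose of the first transcribed nucleotide of mRNA, next to the cap. All groups shared the cell line, the transfection and the harvest time. The methods give 3 biological replicates while 3, 4 and 4 libraries were deposited, and no label says which came from separate cultures, so p-values measure the spread between these libraries, which may be technical. In bulk RNA of this kind, fewer cells of a type and less RNA per cell cannot be told apart.

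Counted reads ran from 6738478 to 8382318 per library, and 16073 genes with more than 1 CPM (reads scaled to the library's counted reads, in parts of 1000000) in at least 4 libraries went into edgeR's quasi-likelihood test. A gene was called at a Benjamini-Hochberg adjusted p of at most 0.05 over all genes tested. The targeted gene Cmtr1 was at 20.3 ± 2.10 CPM in control libraries (SD, n = 3), 19.2 ± 2.45 with siRNA 1 (n = 4) and 17.1 ± 1.68 with siRNA 2 (n = 4). It was not called with siRNA 1 (log2 fold change −0.088, adjusted p = 0.743) or siRNA 2 (−0.25, adjusted p = 0.144), so its mRNA does not check the labels, and a direction given below is that of libraries labelled with an siRNA. The sum of 8 embryonic stem cell markers was 1721 to 1825 CPM in control libraries, 1493 to 1629 with siRNA 1 and 1551 to 1614 with siRNA 2. Sums of fibroblast markers (38.1 to 55.1 CPM over all libraries), endoderm markers (103 to 194 CPM) and neural markers (164 to 209.7 CPM) were lower than that of the embryonic stem cell markers in every library, and no listed marker was at 0 in all libraries.

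The sequences below are the stretches of the members' promoter windows that hold letters of the heat shock element. They are shown because HSF1 is the factor that ties this family together, and because a pair of members shares one such stretch. RefSeq windows of 300 bases around the start of transcription (build GRCm38.p6) were found for 7 of the 10 members, and not for Hsp90aa1, Hsp90ab1 and Hspa8. The element was searched on both strands as 3 alternating units of GAA and TTC, each separated from the next by 2 bases of any kind. Capitals mark the matches: in Hspd1 and Hspe1 a run of 18 bases formed by 2 overlapping 3-unit matches, and in Hspa1a and Hspa1b a 2-unit match. The name gives the position and the strand on which it is written.
Hspd1, chr1:55088053-55088082, minus strand: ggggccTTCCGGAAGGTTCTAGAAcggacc
Hspe1, chr1:55088053-55088082, plus strand: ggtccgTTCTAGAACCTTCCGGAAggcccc
Hspa1a, chr17:34972247-34972266, minus strand: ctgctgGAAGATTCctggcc
Hspa1b, chr17:34959329-34959348, minus strand: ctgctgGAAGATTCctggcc

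Hspd1 and Hspe1 lie head to head on chromosome 1, and their 5′ ends overlap by 112 bases on opposite strands. The capitals in their lines are therefore the same 18 bases read from either strand. They stand 144 to 127 bases before one annotated start of Hspd1 and 89 to 72 bases before that of Hspe1. All 30 bases shown lie within an exon of another annotated transcript.

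The 3-unit element was found in 3 of the 7 members with a window, the third being Hsph1, whose match lies after its start. It was found in 198 of 32851 windows in all (0.603%), and in 179 of 27025 genes (0.662%). Members were chosen partly as known HSF1 targets, so their number beside these shares is no test. Hspa1a and Hspa1b hold only a 2-unit match, 104 to 97 bases before the start. A 2-unit match (GAA and TTC, or TTC and GAA, again 2 bases apart) was in 15.1% of all windows. It was in 17% of genes and in 5 of the 7 members. The 250 bases before the starts of Hspa1a and Hspa1b were the same at 247 positions. A match is a description of letters and not a bound site.

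The level of these genes in control cells spanned more than 3 orders of magnitude per length. Hsp90ab1, the constitutive cytosolic HSP90, stood highest at 1117 ± 21.2 CPM per kilobase of exon (SD, n = 3). Hsp90aa1, its stress-inducible partner, followed at 429 ± 13.7, then Hspd1 at 328 ± 9.73 and Hspa8, the constitutive HSP70, at 286 ± 7.64 CPM per kilobase. Hspa4 stood at 132 ± 3.63 and Hspe1 at 114 ± 4.37, while Hsph1 was at 39.1 ± 1.53 and Dnajb1 at 14 ± 0.578 CPM per kilobase. The inducible HSP70 genes were lowest, at the foot of this order: Hspa1b was at 1.16 ± 0.128 and Hspa1a at 0.384 ± 0.157 CPM per kilobase. In control libraries no pair of neighbours in this order overlapped, so the order was the same in each of them. With siRNA 1 the ranges of Hspd1 and Hspa8 overlapped, while the order of the group means was unchanged. Length here is that of all annotated exons of a gene merged, 4301 bases for Hspa8 and 2642 for Hspd1. The coding sequence of their longest coding transcript is 1938 and 1719 bases. Close ranks, such as Hspd1 above Hspa8 or Hspa4 above Hspe1, therefore also depend on the annotation. Together the 10 genes took 0.836 ± 0.0168% of counted reads in control libraries (SD, n = 3), 0.781 ± 0.0366% with siRNA 1 (n = 4) and 0.818 ± 0.0321% with siRNA 2 (n = 4).

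**Figure D1:**
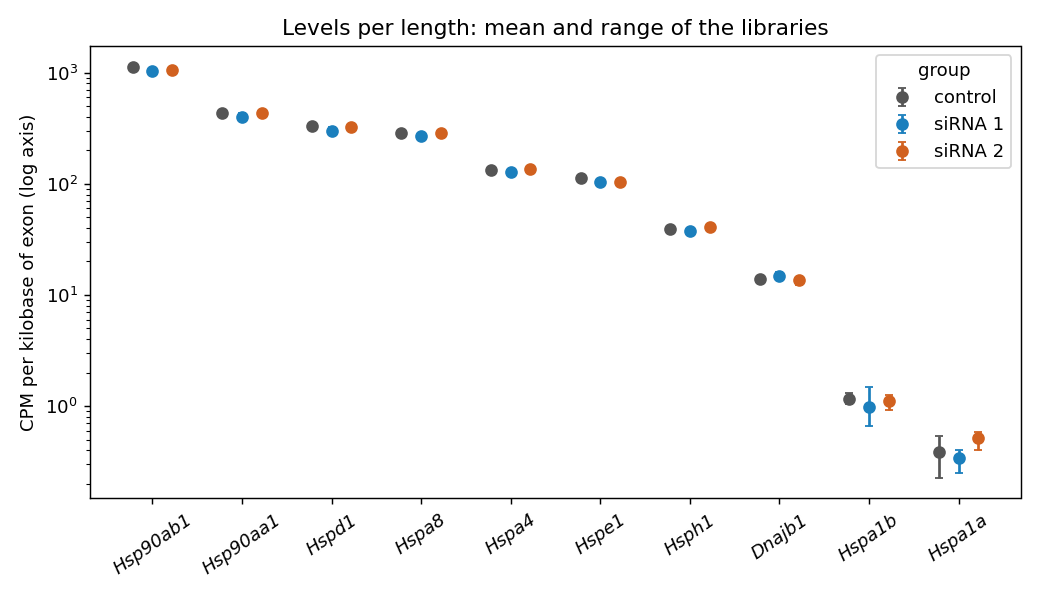
Level of each member in CPM per kilobase of exon on a log axis, for control, siRNA 1 and siRNA 2. Points are group means and bars run from the lowest to the highest library; Hsp90ab1 is at 1117 and Hspa1a at 0.384 CPM per kilobase in control.

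Several members share sequence with near-identical copies. In the 10 libraries that list them, reads aligned to more than 1 place (5.79% to 6.32% of all reads counted or listed) stand apart from the gene counts, so a read that fits both copies equally would not be in the values, and the level per kilobase of a member with shared sequence may be too low. Of the 75-base stretches of Hspa1a transcripts, 61.7% also occur in another gene, mostly Hspa1b, and for Hspa1b the share is 55.8%. The shares are 42.8% for Hsp90aa1, 33% for Hspa8, 31% for Hspd1 and 14.6% for Hspe1, largely through pseudogenes such as Gm12346, Gm15459 and Hspd1-ps3. They are 0.537% for Hsp90ab1 and 0 for Hspa4, Hsph1 and Dnajb1. How many reads were lost in this way was not measured, so the order of levels between members with and without shared sequence, such as Hspe1 and Hspa4, holds for counted reads only. Hspa1a also overlaps Gm20481 on the opposite strand over 19% of its exon bases, and Hspd1 and Hspe1 overlap each other over 4.24% and 7.6%.

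None of the 10 heat shock genes passed the test with either CMTR1 siRNA. With siRNA 1 the highest and lowest log2 fold changes were 0.087 (Dnajb1) and −0.27 (Hspa1b), and with siRNA 2 they were 0.40 (Hspa1a) and −0.14 (Hspe1). Of all genes tested, 4.67% were called with siRNA 1 and 9.72% with siRNA 2, against 0 of 10 members with each. At an unadjusted p under 0.05 the members numbered 5 with siRNA 1 (16.8% of all genes) and 2 with siRNA 2 (23.2% of all genes). DESeq2 called Hsp90ab1 lower with siRNA 1, and Hsp90ab1 and Hspe1 lower with siRNA 2. With TMM factors edgeR called Hspe1 lower with siRNA 2, and without siRNA 1 replicate 3 it called Hspd1 and Hspe1 lower with siRNA 1. With 1 library left out at a time, 355 to 852 genes in all were called with siRNA 1. The calls under DESeq2 and TMM factors are not set beside the share of all genes called in the same fits. With siRNA 1 the log2 fold change was below 0 for 9 of 10 members (43.2% of all genes), with a median of −0.10 against 0.024 over all genes. With siRNA 2 it was below 0 for 6 of 10 (42.9% of all genes), with a median of −0.0064 against 0.029. Both comparisons use the same 3 control libraries.

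**Figure D2:**
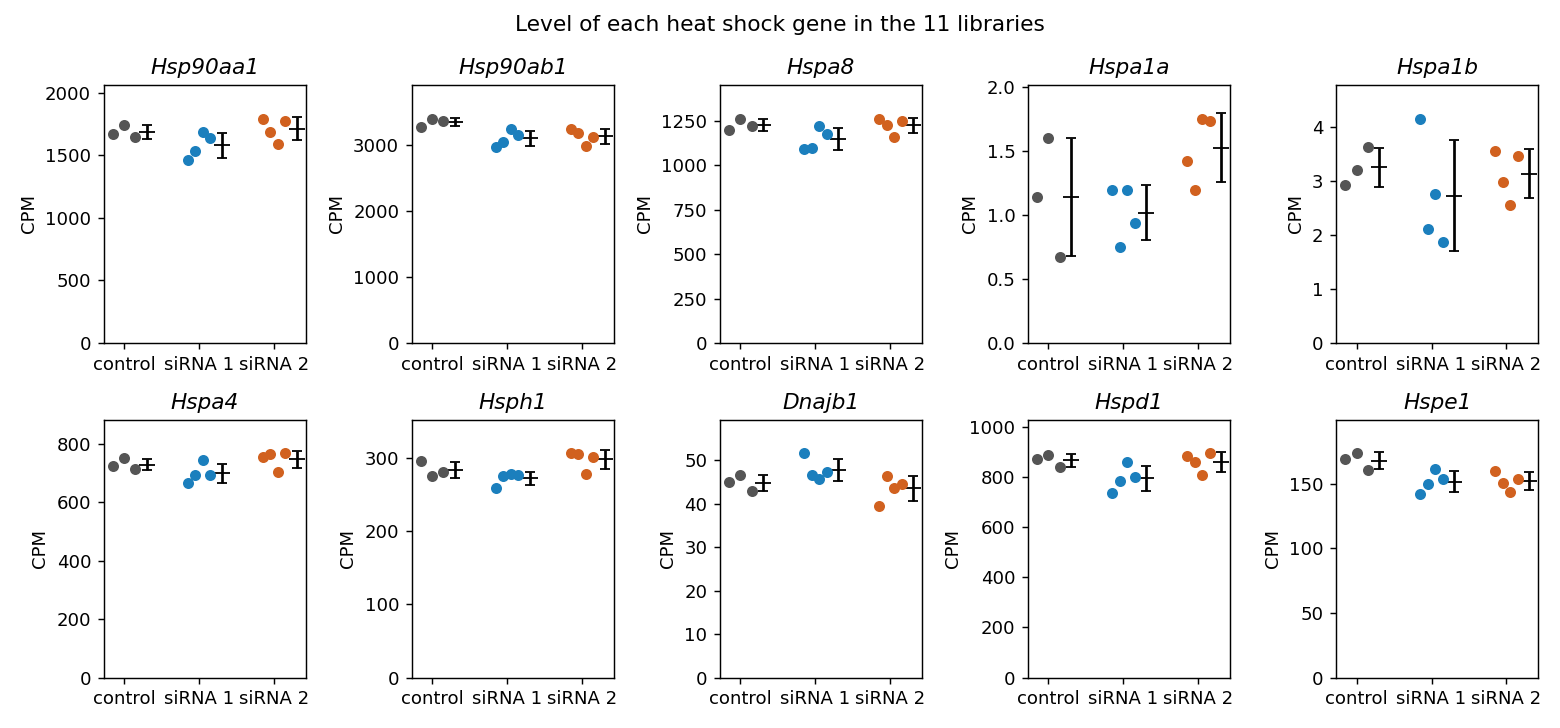
CPM of each member in each library (points), with the group mean and SD to the right of the points; the axes start at 0. The groups overlap for most members, and Hsp90ab1 is lower in all 8 siRNA libraries than in the 3 control libraries.

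Hsp90ab1 (chromosome 17, 45567775 to 45573271) separated from control in both comparisons. The control libraries held 3279, 3404 and 3364 CPM. The siRNA 1 libraries held 2979.6, 3055, 3243 and 3151 CPM, and the siRNA 2 libraries 3248, 3192, 2984 and 3131 CPM. Every siRNA library was below every control library. For siRNA 1 this came to −0.11 on the log2 scale (SE 0.040, adjusted p = 0.122), with a 95% interval of −0.19 to −0.027. For siRNA 2 it came to −0.094 (SE 0.040, adjusted p = 0.141), with an interval of −0.17 to −0.012. In percent these differences are −7.22 and −6.28, and neither was called. Non-overlap was not rare: it held for 15.5% of all genes tested with siRNA 1, where Hsp90ab1 was 1 of 10 members, and for 19.4% with siRNA 2, where Hsp90ab1 and Hspe1 were 2 of 10. Of the two-sided exact permutation tests over libraries, 30 in all, the lowest adjusted p was 0.245, and 3 against 4 libraries cannot give a p under 0.0571.

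Hsp90aa1 (chromosome 12, 110690605 to 110702728) was at 1669, 1747 and 1645 CPM in control libraries. It was at 1467, 1537, 1689 and 1636 CPM with siRNA 1 and at 1795, 1687, 1595 and 1777 CPM with siRNA 2. The siRNA 1 libraries reached below control and the siRNA 2 libraries to both sides of it. Log2 fold changes were −0.093 with siRNA 1 (adjusted p = 0.289) and 0.022 with siRNA 2 (adjusted p = 0.823), and the latter's interval, −0.069 to 0.11, holds both directions.

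The constitutive HSP70 gene Hspa8 (chromosome 9, 40800984 to 40810087), whose protein also uncoats clathrin vesicles, gave 1199, 1264 and 1223 CPM in control libraries. It gave 1092, 1101, 1221 and 1179.5 CPM with siRNA 1 and 1261, 1229.9, 1162 and 1247 CPM with siRNA 2. Both siRNA groups overlapped control. The differences were −0.097 (adjusted p = 0.221) and −0.0037 (adjusted p = 0.974; interval −0.090 to 0.083) on the log2 scale.

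The inducible HSP70 genes, single-exon neighbours 9952 bases apart on chromosome 17, were close to the filter. For Hspa1a (34969190 to 34972156) the control libraries held 1.14, 1.60 and 0.673 CPM, the siRNA 1 libraries 1.19, 0.748, 1.19 and 0.936, and the siRNA 2 libraries 1.42, 1.19, 1.75 and 1.73. These values are 5 to 14 reads per library. All 4 siRNA 2 libraries were above 1 CPM, as were some control and siRNA 1 libraries, which would meet the filter without siRNA 2. For Hspa1b (34956436 to 34959238) the values were 2.92, 3.21 and 3.63 CPM in control, 4.16, 2.12, 2.77 and 1.87 in the siRNA 1 libraries, and 3.55, 2.98, 2.56 and 3.46 in the siRNA 2 libraries, each resting on 14 to 28 reads.

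Both genes overlapped control in both comparisons. Their intervals were wide: the fold of Hspa1a lay between 0.516 and 1.48 with siRNA 1 and between 0.820 and 2.12 with siRNA 2, and that of Hspa1b between 0.587 and 1.17 and between 0.694 and 1.34. Sampling of reads alone gives Hspa1a an SD of 0.376 CPM in control libraries, where the observed SD was 0.465 CPM. For Hspa1b with siRNA 1 it gives 0.601 CPM, where the observed SD was 1.02 CPM. The intervals hold both directions, so no change of either gene was resolved with these read counts and this spread between libraries.

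Hspa4 and Hsph1, the exchange factors that release clients from HSP70, did not separate from control. Hspa4 (chromosome 11, 53259814 to 53300457) was at 722, 751 and 712 CPM in control libraries, where siRNA 1 gave 665, 694, 744 and 692 and siRNA 2 gave 753, 763, 702 and 767. Hsph1 (chromosome 5, 149614287 to 149636376) was at 296, 275 and 280.2 CPM in control, 258, 275, 277.5 and 277 for siRNA 1, and 306, 306, 278 and 301.5 for siRNA 2. The log2 fold changes with siRNA 1 were −0.059 for Hspa4 (adjusted p = 0.532) and −0.060 for Hsph1 (adjusted p = 0.559). With siRNA 2 they were 0.035 (adjusted p = 0.683) and 0.071 (adjusted p = 0.371).

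Dnajb1 (chromosome 8, 83608193 to 83612653), the HSP40 that delivers clients to HSP70 and is a known HSF1 target, was at 45.1, 46.6 and 42.9 CPM in control libraries. It was at 51.6, 46.7, 45.6 and 47.2 CPM with siRNA 1 and at 39.5, 46.5, 43.7 and 44.5 CPM with siRNA 2. Its log2 fold changes were 0.087 (adjusted p = 0.581) and −0.041 (adjusted p = 0.783), with the groups overlapping. It was the only member above 0 with siRNA 1.

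The chaperonin gene Hspd1 (chromosome 1, 55077835 to 55088243) was at 871, 888 and 838 CPM in control libraries, where siRNA 1 gave 737, 783.5, 858 and 799 and siRNA 2 gave 882, 858, 806 and 894. Hspe1 (55088132 to 55091307), which encodes the lid, was at 169, 173.5 and 161 CPM in control libraries, against 142, 149.6, 161 and 154 for siRNA 1 and 160.1, 151, 143 and 154 for siRNA 2. With siRNA 2 all Hspe1 libraries were below control, while the Hspd1 libraries lay on both sides of it. The log2 fold changes of Hspe1 were −0.15 with siRNA 1 (SE 0.051, adjusted p = 0.0917) and −0.14 with siRNA 2 (SE 0.051, adjusted p = 0.0652). For Hspd1 they were −0.12 (SE 0.045, adjusted p = 0.114) and −0.0091 (SE 0.045, adjusted p = 0.938).

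Taking the mean of both siRNAs against control, Hspe1 fell, and it was the single member called of 10, beside 6.91% of all genes. It fell by 9.61% (log2 fold change −0.15, SE 0.045, adjusted p = 0.0398). The call was lost in 8 of the fits that leave out 1 library, with an adjusted p of 0.0505 to 0.249, and held without siRNA 1 replicate 3, siRNA 2 replicate 1 or siRNA 2 replicate 4. Hsp90ab1 was next, at −0.10 (SE 0.036, adjusted p = 0.0763), and was called beside Hspe1 when TMM factors or DESeq2 size factors replaced total counts. No other member had an adjusted p under 0.368 in this comparison.

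**Figure D3:**
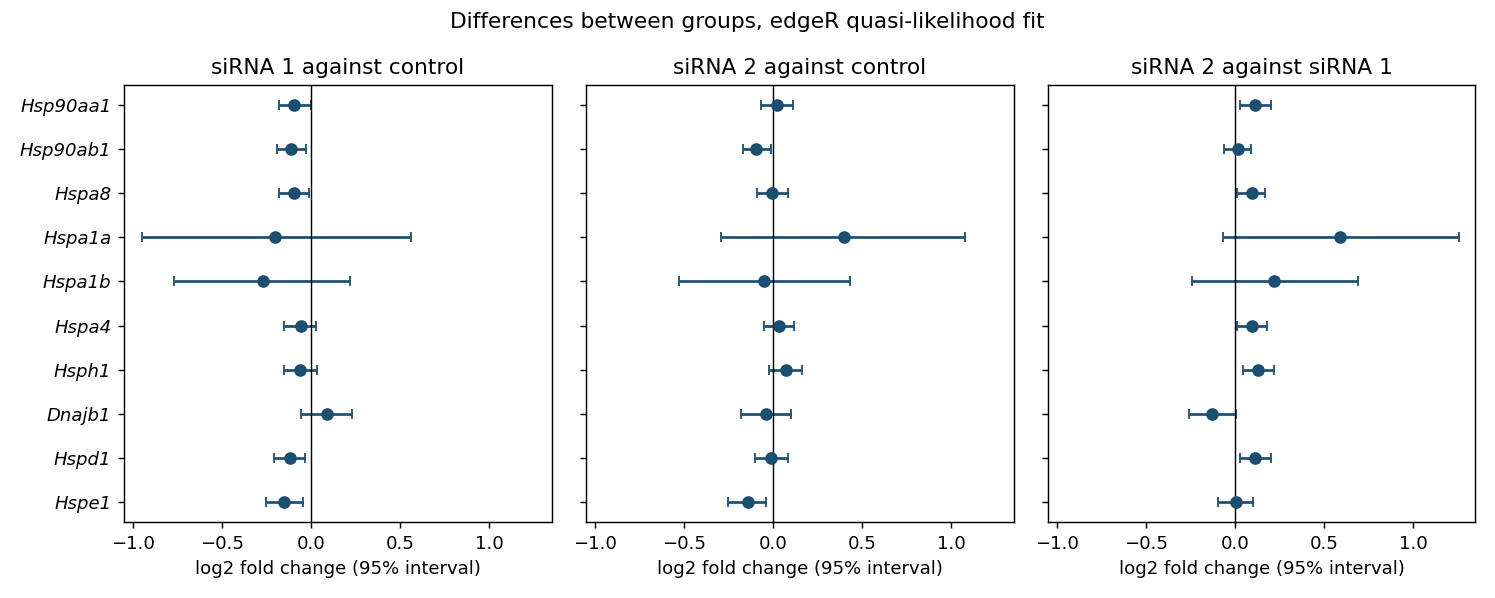
Log2 fold change of each member (points) with its 95% interval (bars) for siRNA 1 against control, siRNA 2 against control and siRNA 2 against siRNA 1. The intervals of Hspa1a and Hspa1b are wide. For siRNA 2 against siRNA 1 the intervals of Hsp90aa1, Hspa8, Hspa4, Hsph1 and Hspd1 lie above 0, though no member was called.

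The groups of the 2 siRNAs were also compared directly. No member was called, while 7.44% of all genes were, and 5 members had an unadjusted p under 0.05 (21.1% of all genes). The log2 difference, siRNA 2 minus siRNA 1, was above 0 for 9 of 10 members, with a median of 0.10 against 0.0018 over all genes. It was 0.13 for Hsph1 (SE 0.043, adjusted p = 0.0512), 0.11 for Hsp90aa1 (SE 0.042, adjusted p = 0.086) and 0.11 for Hspd1 (SE 0.042, adjusted p = 0.0875). For Hsp90ab1 and Hspe1 it was 0.015 and 0.0035, with intervals of −0.061 to 0.090 and −0.093 to 0.10. Hspa1a and Hsph1 did not overlap between the siRNA groups, which was so for 11.8% of all genes. For Hspa1a the nearest libraries held 9 and 10 reads and the same 1.19 CPM to the digits given, a gap below the counting error. For Hsph1 the nearest libraries held 277.5 and 278.0 CPM. That gap too is below the counting error, an SD of 6.05 CPM with siRNA 1 and 6.22 CPM with siRNA 2. Without siRNA 2 replicate 3, the members called were Hspa4, Hsp90aa1, Hspd1 and Hsph1, and without siRNA 1 replicate 3 they were Hsp90aa1 and Hspd1. With 1 library left out at a time, 724 to 1365 genes in all were called in this comparison. The share of all genes called in those particular fits is not given here. EdgeR's exactTest called Hsph1, as did the filter of edgeR's filterByExpr.

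Ratios between members within a library do not depend on how libraries are scaled, and are given without a test. The reads of Hsp90aa1 were 0.509, 0.513 and 0.489 times those of Hsp90ab1 in control libraries, 0.492, 0.503, 0.521 and 0.519 times with siRNA 1, and 0.553, 0.529, 0.534 and 0.568 times with siRNA 2. The siRNA 2 libraries stood above all others. The ratio of Hspd1 to Hspe1 was 5.15, 5.12 and 5.21 in control, 5.20, 5.24, 5.33 and 5.20 for siRNA 1, and 5.51, 5.70, 5.63 and 5.81 for siRNA 2, again with every siRNA 2 library above the rest. In log2 the siRNA 2 ratios exceeded control by 0.12 for the HSP90 pair and 0.13 for the chaperonin pair. How often ratios of other gene pairs separate in this way was not tested. For CPM of single genes, siRNA 2 libraries did not overlap control for 19.4% of all genes, or siRNA 1 for 11.8%. The ratio of inducible HSP70 reads (Hspa1a plus Hspa1b) to Hspa8 reads overlapped between all groups, at 0.00339 to 0.00381 in control, 0.00238 to 0.00489 with siRNA 1 and 0.0034 to 0.00416 with siRNA 2. That of Hsph1 to Hspa4 overlapped too, from 0.366 to 0.410 over all libraries.

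**Figure D4:**
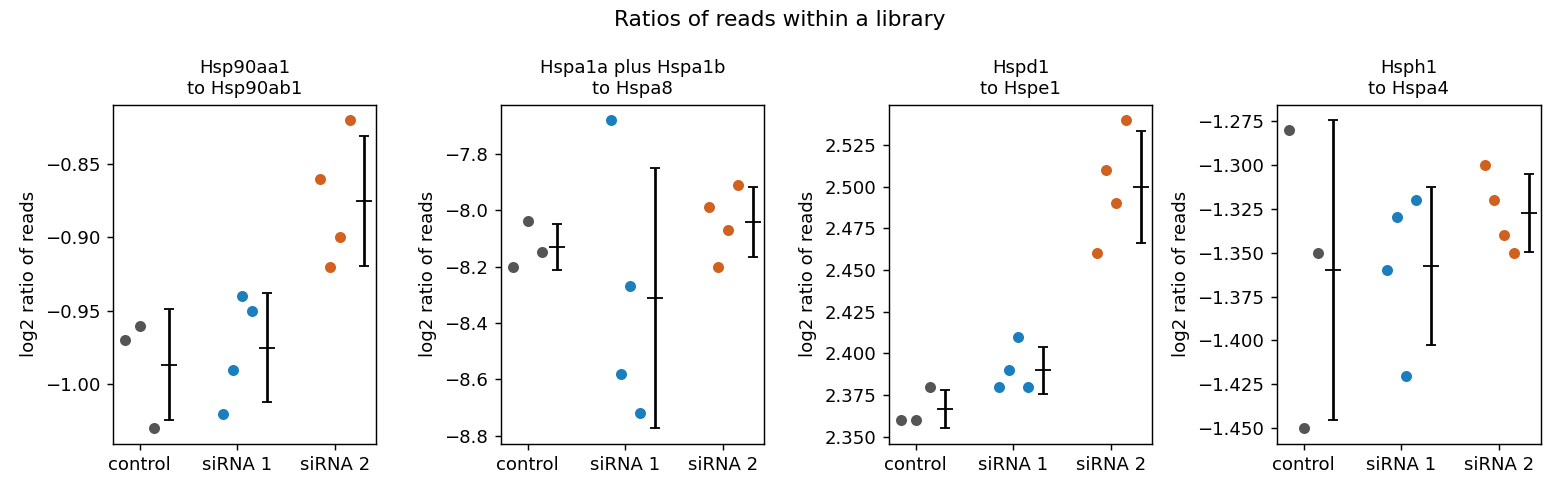
Log2 ratio of reads of member pairs in each library (points), with the group mean and SD to the right; each panel has its own axis, which does not start at 0. The siRNA 2 libraries lie above the others for Hsp90aa1 to Hsp90ab1 and for Hspd1 to Hspe1.

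A set of 6 members moved together from library to library. Abundance alone does not define the set: it holds Hspe1, at 167.8 CPM in control, and leaves out Hsph1, at 283.7 CPM. After the group mean was taken out, the log2 CPM of Hsp90aa1, Hsp90ab1, Hspa8, Hspa4, Hspd1 and Hspe1 correlated at r = 0.82 to 0.95 over the 11 libraries (15 pairs, median 0.88), as a description of values that share library and depth. Hsph1 followed them less closely (r = 0.49 to 0.67). For Dnajb1 the values were negative but weak (r = −0.48 to −0.18) and were not tested against 0. siRNA 1 replicate 1 and siRNA 2 replicate 3 lay lowest, each with a mean deviation of −0.085 over these 6 genes, and siRNA 1 replicate 3 lay highest at 0.091. Of genes outside the members, Stip1 and Pou5f1 were also lowest of their groups in the former libraries, while Hyou1 was highest of its groups there. How closely other abundant genes vary together was not tested, so the correlations are not shown to be particular to the members. The share of reads falling in no gene was 44.3% in siRNA 2 replicate 3, and 39.9% and 39.3% in replicates 1 and 2. It was 41% in siRNA 1 replicate 3 and 43% to 43.4% in the other siRNA 1 libraries. In control libraries it was 43.2%, 41.2% and 42.2% for replicates 1 to 3, whose mean deviations were −0.012, 0.041 and −0.029, and for siRNA 2 replicate 4 it is not listed. The part of this share in the members' levels was not tested.

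For the 3 members whose levels varied most, the genes most alike in log2 CPM over the 11 libraries were sought among 9544 genes with a mean of at least 10 CPM. They were Carmil2, Snx2 and Elk4 for Hspa1a (r = 0.87, 0.86 and 0.86), Emc4, Max and Tusc2 for Hspa1b (r = 0.83, 0.77 and 0.76), and Adnp, Wdr81 and Pgm3 for Dnajb1 (r = 0.89, 0.89 and 0.86). With so many genes and few libraries, such values describe these libraries only.

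The rest of the chaperone network was taken from 8 lists written from general knowledge, with earlier results of these data known. Of 117 listed genes tested, 1 rose and 3 fell with siRNA 1 (3.42%, against 4.67% of all genes), and 8 rose and 2 fell with siRNA 2 (8.55%, against 9.72%). Between the siRNAs, 7 were called higher and 6 lower with siRNA 2 (11.1%, against 7.44%). No HSP90 co-chaperone (20 tested) and no HSP70 co-chaperone (12 tested) was called with either siRNA. HSF1 itself, the factor that drives the heat shock response, was at 84.9 ± 4.12 CPM in control (SD, n = 3), 92.2 ± 3.20 with siRNA 1 (n = 4) and 87 ± 5.06 with siRNA 2 (n = 4), and was not called (adjusted p = 0.278 and 0.771).

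The genes that rose with siRNA 2 included 4 of 18 endoplasmic reticulum chaperones. Of all genes tested, 9.72% were called with siRNA 2, 991 of them higher and 571 lower. Hspa5, the HSP70 of that compartment, went from 607 ± 20.5 CPM in control to 682 ± 58 (log2 fold change 0.17, adjusted p = 0.0206). Dnajb11, its J-domain partner, rose by 0.19 (adjusted p = 0.0312), Pdia3, a disulfide isomerase, by 0.17 (adjusted p = 0.0103), and Serpinh1, the collagen chaperone, by 0.23 (adjusted p = 0.0264). Serpinh1 was also the gene that rose with siRNA 1 (0.36, adjusted p = 0.000638). The other 14 were not called with siRNA 2, and the list's median was 0.059 against 0.029 over all genes. Between the siRNAs, 4 of the 18 were called higher with siRNA 2 and 1 was called lower. Whether this list held more called genes than other sets of genes was not tested.

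Among 14 mitochondrial chaperones and proteases, the proteases Afg3l2 (0.20, adjusted p = 0.0112) and Yme1l1 (0.17, adjusted p = 0.0365) rose with siRNA 2 and none was called with siRNA 1. Of 42 J-domain genes, Dnajb6, Dnajc21 and Dnajb14 fell with siRNA 1, by 0.23, 0.25 and 0.45 on the log2 scale (adjusted p = 0.0122, 0.0173 and 0.0199). With siRNA 2, Dnajc6, the clathrin uncoating factor auxilin, fell by 0.53 (adjusted p = 0.00639), and Dnajc25 (0.44, adjusted p = 0.0206) and Dnajb11 rose. In the HSF list of 7 tested genes, Hsf5, a factor known from the testis, rose with siRNA 2 (1.06, adjusted p = 0.000396; 2.64 ± 0.322 CPM in control and 5.49 ± 0.763 with siRNA 2), and Dedd2 fell by 0.32 (adjusted p = 0.0321). None of the 5 small heat shock proteins was called with either siRNA. Hspb6 was called for the mean of both (−0.77, adjusted p = 0.0492) and is named after its value was seen.

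**Figure D5:**
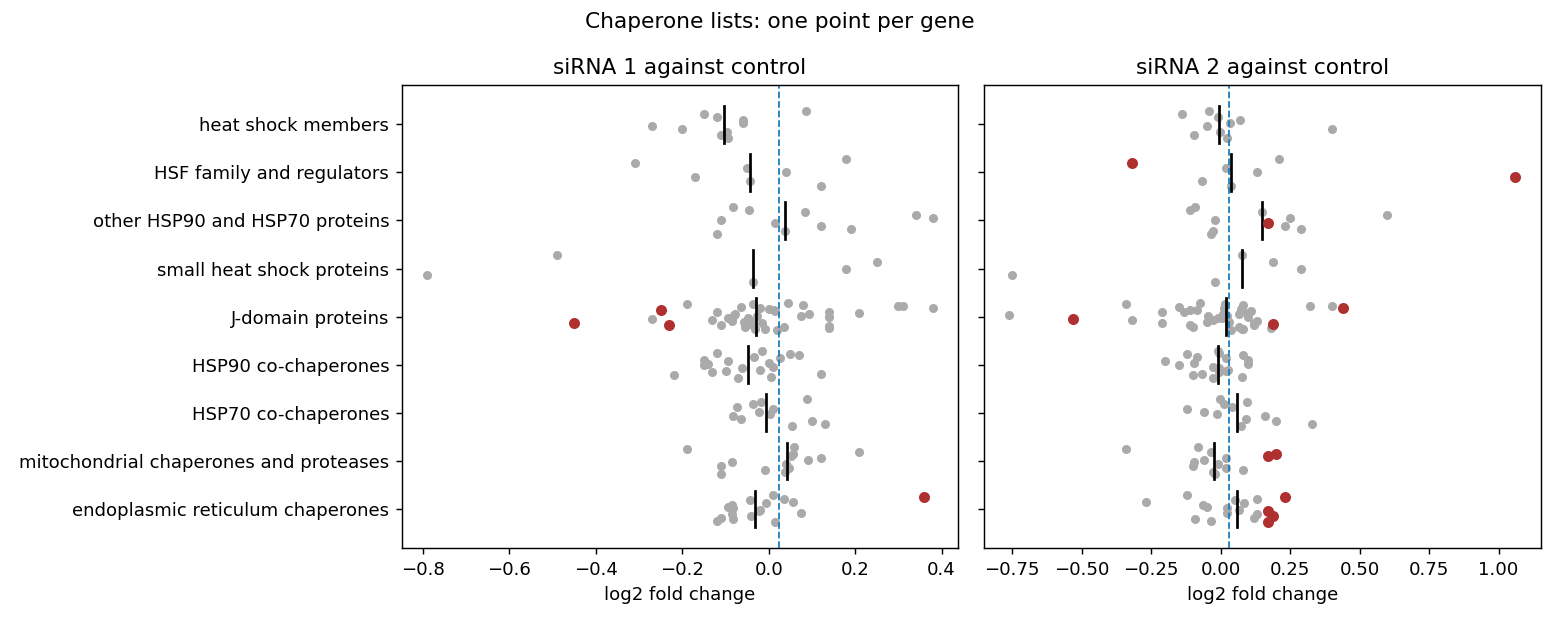
Log2 fold change of the genes of each chaperone list with siRNA 1 and siRNA 2, one point per gene tested. Red points are genes called, black bars are list medians and the dashed line is the median of all genes; the heat shock members have no red point.

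Rbm3, an RNA-binding protein known to rise in the cold, was listed as a gene that answers to temperature in the opposite sense. It fell with siRNA 1 by 0.23 (adjusted p = 0.00188) and with siRNA 2 by 0.50 (adjusted p = 9.24e-10), from 238 ± 8.98 CPM in control to 203 ± 8.32 and 168 ± 7.19. The other gene of that list, Cirbp, was not called (adjusted p = 0.36 and 0.805). Beside these values, Esrrb, Klf4, Nanog and Zfp42 of the 8 embryonic stem cell markers fell with both siRNAs, and Pou5f1 with siRNA 1. Nes rose with both, while Col1a1 and Dcn, fibroblast markers, and Map2 rose with siRNA 2, Col3a1 fell with siRNA 2, and Cubn, an endoderm marker, fell with both. The part of these markers in the chaperone values was not tested.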

How the data were processed

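The deposited values are whole-number counts per gene, made by the authors from 11 rRNA-depleted, directional RNA-seq libraries of E14 cells. The methods name Cutadapt for trimming, STAR for alignment to GRCm38 and Picard for the removal of duplicates before counting, and featureCounts for counting; tool versions and the strand setting are not given in the sources used here. Summary lines (reads in no gene, ambiguous, multiply aligned), present in 10 of 11 files, were set aside. They have the layout of HTSeq-count, so the counting tool and its rule for multiply aligned reads are uncertain. Depth was 6738478 to 8382318 counted reads per library.

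Genes above 1 CPM in at least 4 libraries (16073) were tested with edgeR 4.0.16 in R 4.3.3 (glmQLFit and glmQLFTest) on all 3 groups, with total counts as library sizes as the methods state. The study used exactTest, run here as an alternative, as were TMM factors, DESeq2 1.42.0, other filters, fits of 2 groups, a replicate block, and each library left out in turn. P-values were adjusted by Benjamini-Hochberg. Python 3.11.15 made tables and figures. The code was also checked on simulated counts, drawn with the spread estimated from these data and scored for siRNA 1 against control only. Promoter windows are from RefSeq (GRCm38.p6), and gene positions and exon lengths from the Ensembl annotation of GRCm38.

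The members and lists were chosen with earlier results of these data known. All 10 members are named, then Cmtr1, then from each list the genes called with at least 1 siRNA, at most the 5 with the lowest adjusted p, and for the 3 most variable members the 3 most alike genes. Dnajc25, Hsf1, Cirbp and Hspb6 are named outside that rule. Same-numbered libraries of different groups did not deviate together (mean r 0.0089 over 10 pairs, against −0.00297 over 30 others), so numbers were not taken as pairs.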

Additional observations from a re-analysis of the deposited data

Results flagged for a closer look

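Among 78 groups of 4 libraries examined, 3 had a library that stood apart from the other 3, where chance flags about 1 in 20 groups. Hsph1 was at 258 CPM in siRNA 1 replicate 1 and at 275 to 277.5 CPM in the others. It was at 278 CPM in siRNA 2 replicate 3 and at 301.5 to 306 CPM in the others. siRNA 1 replicate 1 and siRNA 2 replicate 3 are the libraries in which Hsp90aa1, Hsp90ab1, Hspa8, Hspa4, Hspd1 and Hspe1 lay lowest. Rbm3 was at 179 CPM in siRNA 2 replicate 4 and at 163 to 166 CPM in the others.

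No member differed between the siRNAs at the threshold, but 9 named genes of the lists did, by edgeR's test of siRNA 2 against siRNA 1. The log2 difference was 1.23 for Hsf5 (adjusted p = 2.75e-05), 0.15 for Hspa5 (0.0262), 0.24 for Dnajb11 (0.005), 0.19 for Pdia3 (0.00196) and −0.27 for Rbm3 (8.01e-05). Of the markers, it was −0.21 for Esrrb (0.0312), 0.76 for Col1a1 (2.05e-05), 0.99 for Dcn (0.00395) and 0.19 for Nes (0.0391).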

How the results depend on the processing

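Of 700 alternative values of the 40 member fold changes, 644 kept their direction and their side of the threshold. With TMM factors 1 member was called with siRNA 2 (Hspe1) and 2 for the mean of both. With DESeq2 the members called were 1 with siRNA 1, 2 with siRNA 2 and 2 for the mean, and the genes called were 958 with siRNA 2 and 740 for siRNA 2 against siRNA 1. Totals of all genes called are not given here for TMM factors, or for DESeq2 with siRNA 1 and the mean. Those member counts therefore stand without a background. For siRNA 2 against siRNA 1, filterByExpr and exactTest each called 1 member (Hsph1). The 2-unit element was in 5 members. Values near 0 changed sign: Hsp90aa1 with siRNA 2 (−0.0018 with TMM factors, −0.006 with DESeq2), Hsph1 for the mean (−0.017, −0.021, and −0.0018 with the replicate block), Dnajb1 for the mean (−0.0035 with DESeq2) and Hspe1 between the siRNAs (−0.001 and −0.0013). The replicate block gave 840, 1486, 1144 and 1242 genes called for siRNA 1, siRNA 2, their mean and siRNA 2 against siRNA 1, and the numbers do not pair the libraries. The cause of these shifts was not tested.

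Leaving out 1 library at a time gave 355 to 852, 807 to 1658, 499 to 1223 and 724 to 1365 genes called for these 4 comparisons, and 0 to 2, 0 to 0, 0 to 2 and 0 to 4 members. Log2 fold changes that changed sign ran, with siRNA 1, from −0.45 to 0.14 (Hspa1a). With siRNA 2 they ran from −0.00044 to 0.055 (Hsp90aa1), −0.021 to 0.021 (Hspa8), −0.12 to 0.033 (Hspa1b), −0.032 to 0.021 (Hspd1) and −0.076 to 0.00029 (Dnajb1). For the mean they ran from −0.15 to 0.44 (Hspa1a), −0.028 to 0.01 (Hspa4), −0.018 to 0.037 (Hsph1) and −0.0072 to 0.052 (Dnajb1), and between the siRNAs from −0.005 to 0.038 (Hsp90ab1) and −0.026 to 0.034 (Hspe1). Hspa1a and Hspa1b were counted at 5 to 28 reads per library, which limits their precision.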
